A study of Homo sapiens with 2 samples.

Results

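The 7 genes described here encode the enzymes that write and remove DNA methylation in human cells: the methyltransferases DNMT1, DNMT3A and DNMT3B, the catalytically inactive cofactor DNMT3L, and the dioxygenases TET1, TET2 and TET3. They were set against the 20056 protein-coding genes of the RefSeq gene table. Members were taken by name, and a peak was assigned to a gene by the Entrez identifier that the authors wrote into the peak's name. The question was whether and where RNA contacts of DDX18, a nucleolar DEAD-box RNA helicase, were listed on the transcripts of these genes.

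RNA contacts had been mapped by iCLIP, in which UV light links a protein to the RNA it touches and the RNA recovered with the protein is sequenced. The study has 1 group of 2 samples, replicates 1 and 2, both of H9 cells under normal culture on inactivated mouse embryonic fibroblasts. H9 is an established line of human embryonic stem cells, here expressing 3XFlag-DDX18, a FLAG-tagged form of the helicase. The labels do not give the promoter that drives the tagged protein or whether the line is a clone. No untagged, input or other control sample was used here. Both samples share 1 deposited list of 16095 peak positions on hg19, so reads per sample are unknown and no error between replicates can be given for any value below.

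DNMT3A and DNMT3B place methyl groups on unmethylated CpG sites, DNMT3L stimulates them without activity of its own, and DNMT1 copies the pattern onto the new strand after replication. The TET enzymes oxidise the methyl group, which starts its removal. DNMT3B is abundant in primed human embryonic stem cells and falls when they differentiate, and its pre-mRNA is spliced into forms with and without parts of the catalytic domain.

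Peaks were listed in 5 of the 7 genes, and DNMT3B held most of them. DNMT3B had 16 peaks, DNMT1 had 3, DNMT3A and TET1 had 2 each, TET3 had 1, and DNMT3L and TET2 had 0. Together these were 24 peaks with a summed height of 307, of which DNMT3B carried 66.7% of the peaks and 80.5% of the height. Height is the authors' number for each peak, deposited as a whole number with no stated scaling to depth or RNA abundance. The share of genes with a peak was 71.4% (exact 95% binomial interval 29.0 to 96.3, counting error only), and 31.0% of all protein-coding genes had one, a value inside that interval. A missing peak says only that none passed the authors' rule, and gives no level of contact for DNMT3L or TET2.

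The de novo methyltransferase DNMT3B (chromosome 20, plus strand) had its peaks spread over the transcript from exon 3 to the end of the 3' UTR, a stretch of 27862 nt of genomic sequence. In 5' to 3' order, the peaks in coding exons 3, 5, 6, 7 and 9 had heights of 14, 12, 14, 12 and 11. Those in exons 12, 16, 17, 18 and 19 had heights of 17, 13, 23, 12 and 17. All of these exons are numbered on the 20-exon transcript NM_175849. Heights were within 3 of each other over the first 5 of these peaks, and the coding peaks of 17 or more all lay in exons 12 to 19. The highest of the gene, 23, stood in exon 17, at chr20:31388680-31388684 on hg19.

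Each coding peak of DNMT3B lay in an exon of its own, and 9 of the 20 exons of NM_175849 held none. A single peak carried another transcript's name. It had a height of 12 at chr20:31393188-31393200 and was annotated to exon 20 of 22 of NM_175850. It lay 2954 nt downstream of the peak in exon 19 of NM_175849 and 2512 nt upstream of the first peak in that transcript's last exon. The annotation therefore placed it in an exon between the last 2 peak-bearing exons of NM_175849, a transcript that was named for the other 15 peaks of the gene. The list does not say which isoform the reads came from.

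The 3' UTR of DNMT3B held 5 peaks within 1337 nt, all in the last exon. Their heights in 5' to 3' order were 22, 14, 17, 15 and 22, with gaps of 124 to 512 nt between neighbours. The first and the last of them, at position 31395713 and at chr20:31397041-31397049, were the tallest of the 3' UTR and came within 1 of the peak in exon 17. The 3' UTR peaks had a median height of 17 (range 14 to 22) and the coding peaks one of 13 (range 11 to 23), so the ranges overlapped. The 3' UTR thus carried 36.4% of the gene's summed height of 247.

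**Figure D1:**
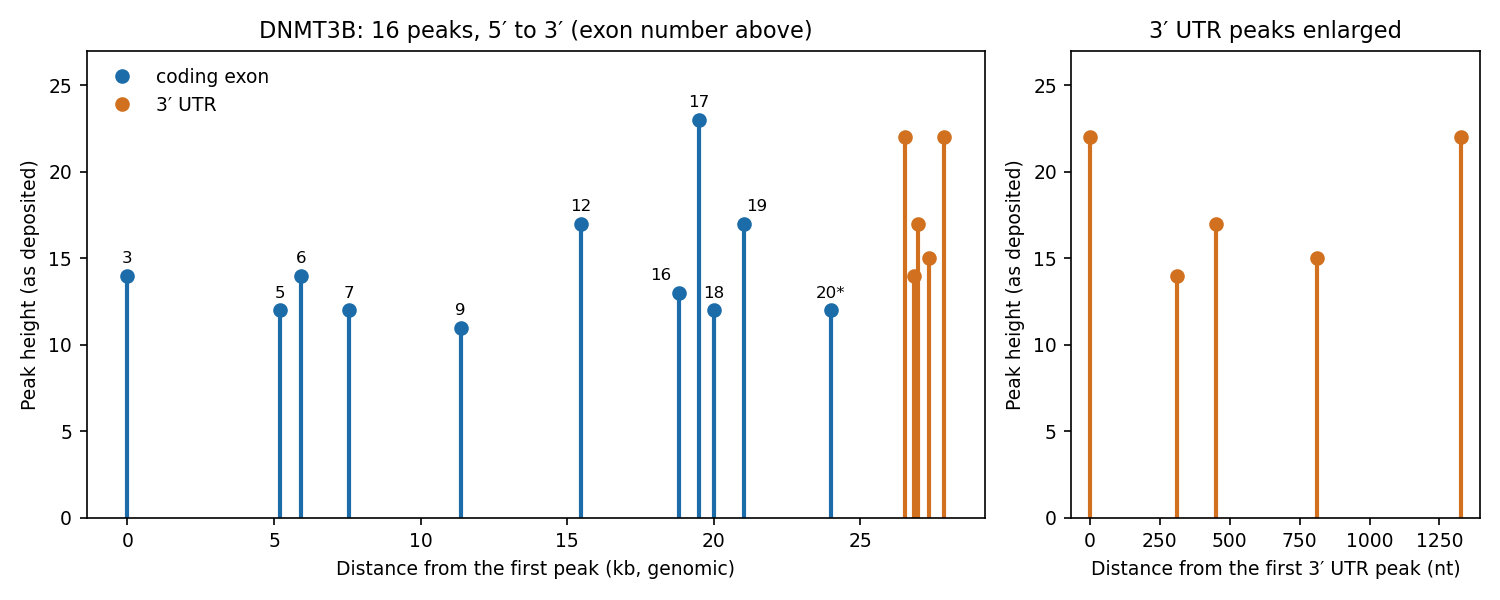
Height of each DNMT3B peak (vertical axis, as deposited) against the genomic distance from the first peak in kb, with the 3' UTR peaks enlarged on the right in nt. Numbers are exons of NM_175849, and 20* is exon 20 of 22 of NM_175850. The tallest peaks, of 22 and 23, lie in exon 17 and at both ends of the 3' UTR cluster.

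Within DNMT3B the deposited p-value followed height alone, since the authors gave the gene 1 expected height, named PH0, of 0.55. The lowest peak, of height 11 in exon 9, had a deposited p of 0.00462. A height of 12 had 0.000234, a height of 14 had 4.68e-07, and the 6 peaks of height 17 or more all had 2.24e-09, so p does not rank the tallest peaks of the gene. How PH0 was computed is not given in the sources used here.

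The maintenance methyltransferase DNMT1 (chromosome 19, minus strand) had all of its 3 peaks in coding exons near the 3' end of the gene. Their heights were 9 in exon 33, 9 in exon 35 and 7 in exon 36 of the 41 exons of NM_001130823, against an expected height of 0.12. They spanned 2141 nt, from chr19:10248602-10248614 to position 10250742, and the deposited p was 2.42e-06 for both taller peaks and 0.00982 for the third. No peak was listed in the first 32 exons or in the 3' UTR.

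The other de novo enzyme, DNMT3A (chromosome 2, minus strand), differed from DNMT3B in having no coding peak. Its 2 peaks both had a height of 7 and a deposited p of 0.000226, and lay 83 nt apart in the 3' UTR, in exon 19 of 19 of NM_153759. They stood at chr2:25456331-25456336 and chr2:25456420-25456435, and the expected height of the gene was 0.06. A further peak of the list has its nearest start site at DNMT3A but was called in DTNB, in an intron, and is not counted here.

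The TET dioxygenases had 3 peaks between them. TET1 (chromosome 10), the family member known for high expression in embryonic stem cells, had a coding peak of height 8 in exon 2 of 12 of NM_030625, at chr10:70332452-70332464, with a deposited p of 6.37e-06. Its other peak, of height 7 and p 0.000632, lay in the 3' UTR in exon 12, 119564 nt downstream in the genome. TET3 (chromosome 2) had 1 peak, of height 6 and p 0.0045, in the 3' UTR in exon 11 of 11 of NM_001287491, at chr2:74329628-74329651. This was the lowest and, with 24 nt, the widest peak of the family. The expected heights were 0.07 for TET1 and 0.05 for TET3.

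Every one of the 24 peaks was called in 1 gene only and carried a transcript of that gene, so none is shared with an overlapping gene in this list. Peak widths ran from 1 to 24 nt with a median of 8.5 nt, against a median of 13 nt (range 1 to 42) at positions called in other protein-coding genes. For 15 of the 24 peaks the nearest start site belonged to a downstream neighbour. These neighbours were MAPRE1 for 10 DNMT3B peaks, EIF3G for the 3 DNMT1 peaks, CCAR1 for the 3' UTR peak of TET1 and BOLA3 for that of TET3.

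All peaks of the family lay in mature mRNA sequence. Coding exons held 15 of 24 (62.5%, exact 95% interval 40.6 to 81.2) and 3' UTRs 9 (37.5%, 18.8 to 59.4), with 0 in introns, 5' UTRs or at start and end sites. The interval for 0 of 24 reaches 14.2%. Positions called in other protein-coding genes were in coding exons in 47.8%, in 3' UTRs in 18.7% and in introns in 18% of 15575 cases. Outside DNMT3B the 8 remaining peaks divided evenly, with 4 in coding exons and 4 in 3' UTRs. Peaks of 1 gene share a transcript and are not independent, and the difference in shares was not tested. The family's 3' UTR peaks all lay in the last exon, which was also true of 99.9% of 3' UTR peaks in other protein-coding genes.

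**Figure D2:**
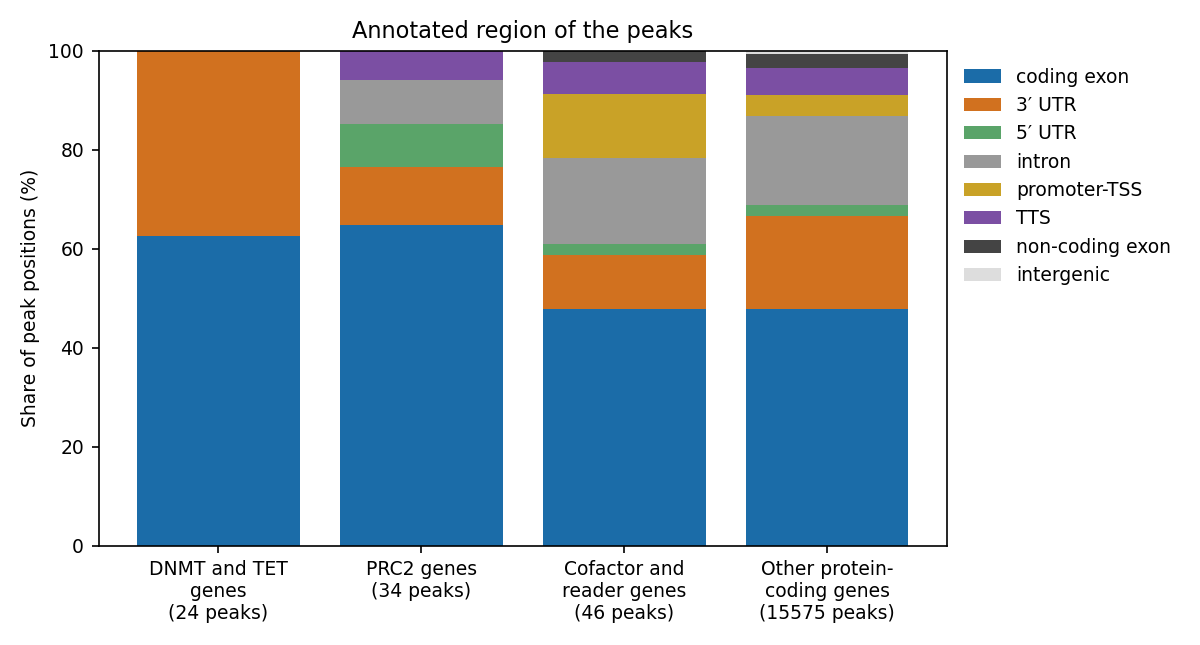
Share of peak positions (vertical axis, percent) by annotated region for the DNA methyltransferase and TET genes (24 peaks), the Polycomb repressive complex 2 genes (34), the cofactor and reader genes of DNA methylation (46) and other protein-coding genes (15575, which include the previous 2 sets). The family has coding and 3' UTR peaks only, whereas introns hold 18% in other protein-coding genes.

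The order of the genes by height and by height over expectation ran in opposite directions. By highest peak the order was DNMT3B (23), DNMT1 (9), TET1 (8), DNMT3A (7) and TET3 (6), and PH0 fell in the same order, from 0.55 in DNMT3B to 0.05 in TET3. Divided by PH0, the highest peak was 41.8 times the expected height in DNMT3B and 75 times in DNMT1. It was 114 times in TET1, 117 times in DNMT3A and 120 times in TET3. PH0 is deposited with 2 decimals, and that rounding alone allows 107 to 123 for TET1, 108 to 127 for DNMT3A and 109 to 133 for TET3, so these 3 genes have no order. The ranges for DNMT3B (41.4 to 42.2) and DNMT1 (72 to 78.3) lie below them and apart from each other. The median over the 5760 called protein-coding genes with PH0 above 0 was 150 (quartiles 77.8 and 300), so all 5 genes were below the median by this measure, and DNMT3B was above only 9.70% of those genes. Listing itself limits this ratio. No peak under 5 was listed in genes with PH0 of 0.05 to 0.07, and none under 9 with PH0 of 0.50 to 0.60. Small ratios could therefore not be listed at low PH0, and the part of this limit in the order and in these ranks was not tested.

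**Figure D3:**
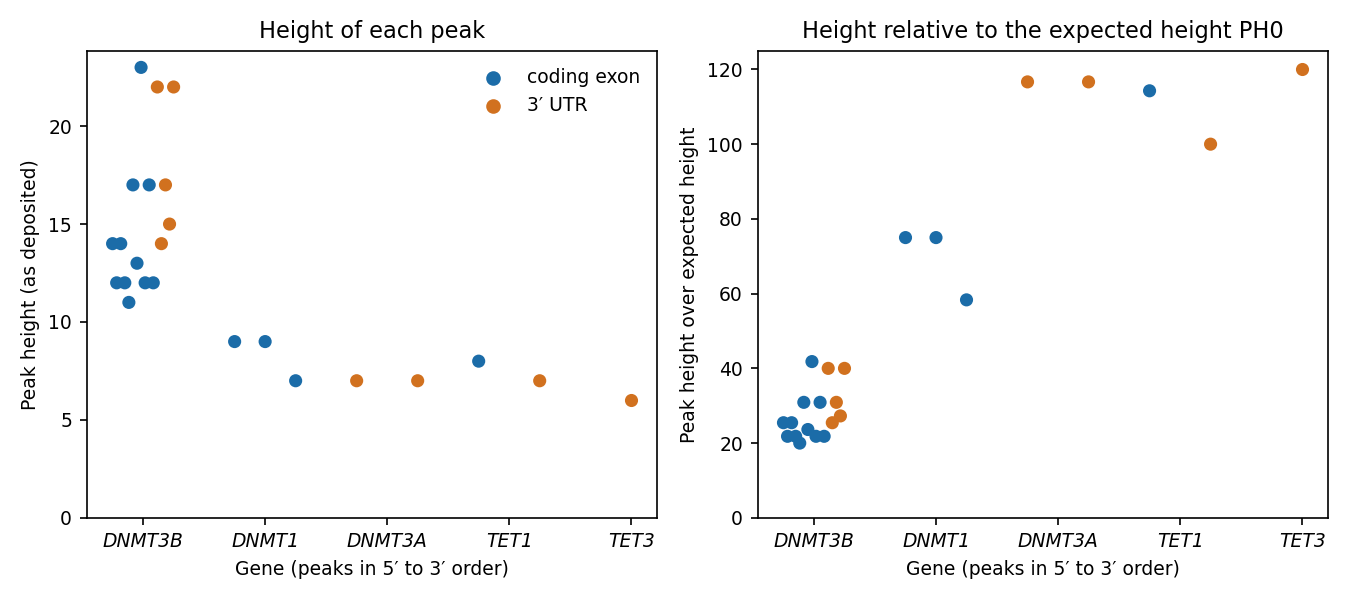
Height of each peak as deposited (left) and height divided by the gene's expected height PH0 (right) for the 5 genes with peaks, in 5' to 3' order within a gene. DNMT3B has the tallest peaks, from 11 to 23, and the lowest ratios, from 20 to 41.8.

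The lowest height that was listed differed with PH0. In DNMT3B no peak under 11 was listed, whereas the other 4 genes had peaks of 6 to 9. Among the 82 protein-coding genes with PH0 of 0.50 to 0.60, DNMT3B included, the lowest listed peak had a median height of 11 and was never under 9. Among the 939 genes with PH0 of 0.05 to 0.07, which include TET1, DNMT3A and TET3, that median was 6. A peak of the height seen in DNMT3A, TET1 or TET3 was thus not listed in any gene with an expected height like that of DNMT3B, and numbers of peaks are comparable only between genes of like PH0. Since no RNA abundance was measured here, the part of transcript level in heights, PH0 and numbers of peaks was not tested. Gene length differed too, with 46972 nt in DNMT3B, 61608 in DNMT1, 114717 in DNMT3A, 134151 in TET1 and 151868 in TET3. Its part in PH0 and in the ratios to PH0 was not tested either.

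Among called protein-coding genes DNMT3B stood high in the number of peaks, while the other members with a peak lay nearer the middle or, for TET3, at the lowest number. DNMT3B had more peaks than 98.3% of the 6218 called protein-coding genes, whose median was 1 and upper quartile 3, and 86 genes had more. Its highest peak was above that of 91.3% of the genes and its PH0 above that of 93.7%. DNMT1 had more peaks than 72.6% of the genes and DNMT3A and TET1 more than 52.7%, while TET3 was one of 3274 genes with 1 peak. These are ranks within 1 list and were not tested. They run over genes of any PH0, with a median PH0 of 0.05, so they do not compare genes of like PH0.

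DNMT3B also had many peaks for its expected height. Of the 82 genes with PH0 of 0.50 to 0.60, DNMT3B included, 4 had more peaks (4.88%). Those 4 were HSPG2 with 44 peaks, COL18A1 and SREBF2 with 27 each and SFRP1 with 18. The median was 4 peaks (quartiles 2 and 7.75). That range was chosen after the values were seen, gene length and exon number were not matched, and the rank was not tested. Its highest peak was less unusual there, with 25 of the 82 genes higher and a median of 18. In genes of PH0 from 0.10 to 0.14, DNMT1 with its 3 peaks stood above the median of 2, and 111 of 520 genes had more. In genes of PH0 from 0.05 to 0.07 the median was also 2, the number found for DNMT3A and TET1.

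**Figure D4:**
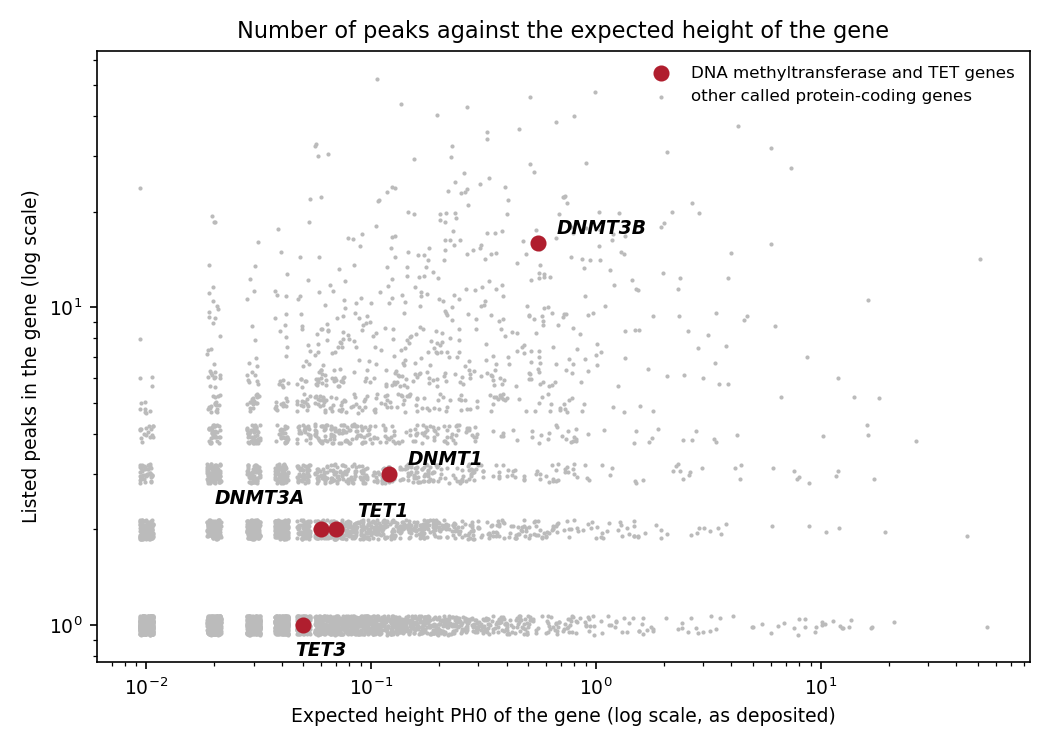
Number of listed peaks (vertical axis, log scale) against the expected height PH0 of the gene (horizontal axis, log scale) for called protein-coding genes with PH0 above 0, the 5 genes of the family in red. Grey points were moved slightly at random so that equal values can be seen. DNMT3B, at PH0 0.55 with 16 peaks, lies near the upper edge of its neighbours, and the other 4 genes, with 1 to 3 peaks, lie within the bulk.

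DNMT3B combined coding and 3' UTR peaks. Taking its own numbers as limits, and over genes of any PH0, at least 11 coding exons with a peak were found in 78 called protein-coding genes (1.25%), at least 5 peaks in the 3' UTR in 75 (1.21%), and both in 13 genes, DNMT3B included. The ratio of the median 3' UTR height to the median coding height was 1.31 in DNMT3B. Over the 134 genes with at least 3 peaks of each kind that ratio had a median of 1.01 (quartiles 0.862 and 1.25), and 25 genes were above DNMT3B. By number of peaks within 2 of DNMT3B and nearest highest peak, the most alike of 64 genes were SLC7A1 (17 peaks), SPTAN1 (16) and UBR4 (15), all with a highest peak of 23. SLC7A1 had 7 coding and 9 3' UTR peaks, whereas all peaks of SPTAN1 and UBR4 were in coding exons.

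Other genes of DNA methylation had peaks in 17 of 28 (60.7%, exact 95% interval 40.6 to 78.5), against 31.0% of all protein-coding genes. The 31.0% lies below that interval, but it covers all 20056 genes whatever their RNA level, which was not measured here. The genes of the list were also chosen with earlier results of these data known. That list had 30 genes, of which 2 are not reported here, so the share and its interval describe the remaining 28 only and were not tested against the background. Of the partners of methylation maintenance and its chromatin context, 5 of 7 had one. HELLS, a chromatin remodeler needed for methylation, had 3 peaks with a highest of 12, of which 2 were intronic, and PCNA, the replication clamp that binds DNMT1, had 3 with a highest of 11 in an exon annotated to its antisense RNA PCNA-AS1. The deubiquitinase USP7 had 4 peaks up to 10. UHRF1, which recruits DNMT1 to hemimethylated sites, had 3 peaks of 5 to 6, and ZBTB24 had 1 of 5. The PH0 of these genes was 0.03 and 0.04, against 0.17 in both HELLS and PCNA and 0.1 in USP7. UHRF2 and CDCA7 had none.

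Among genes of metabolism, AHCY, which clears the product of methyl transfer, had 6 peaks up to 18, the tallest in the 3' UTR, and MAT2A, which makes the methyl donor, had 1 of height 10. IDH1, which makes a cosubstrate of the TET enzymes, had 5 peaks up to 23, with the tallest at the start site annotated to the antisense RNA IDH1-AS1, and IDH2 had 1 of 6.

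Of 4 genes that guard or set methylation at particular sites, TRIM28, a corepressor that keeps imprints methylated, had 8 peaks with a highest of 39 and a PH0 of 3.65. The tallest was labelled as near the start of NR_106865, the microRNA gene MIR6807, and 3 of the 8 were annotated to transcripts of other genes. QSER1, which protects sites from de novo methylation, had 5 peaks up to 10, and DPPA3 and ZFP57 had none. Of the methyl-CpG readers and members of their gene families, MBD1 (6), MBD2 (5), MBD3 (9) and ZBTB4 (6) had 1 peak each. These lay in introns or at a transcript end, that of MBD1 annotated to another gene. None was listed in ZBTB33 or ZBTB38. Of the proteins that act with TET, CXXC5 had 1 peak of 9 in an intron, and CXXC4 and OGT had none. The repair enzymes TDG, SMUG1 and MBD4 had none, and TRDMT1, a relative of the DNA methyltransferases that acts on tRNA, had 1 intronic peak of 6. Over the whole list, 8 of 46 positions were intronic (17.4%), against 0 of 24 in the DNA methyltransferase and TET genes, and this difference was not tested.

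Of the 13 genes of Polycomb repressive complex 2, which methylates histone H3, 5 had a peak (38.5%, exact 95% interval 13.9 to 68.4), with 34 positions in all, and the 31.0% of all protein-coding genes lies inside that interval. JARID2 held 21 of them with a highest of 21 and a PH0 of 0.16, of which 16 were in coding exons and 1 in the 3' UTR. As in DNMT3B, 1 gene thus held most of the peaks of its set, but with a smaller 3' UTR part. The catalytic genes EZH1 and EZH2 had no listed peak, nor had EED and SUZ12. Of the 3 peaks called in RBBP4, 2 were annotated to transcripts of other genes, as were 2 of the 6 called in RBBP7.

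The labelled cell type was set against its markers. LIN28A had 16 peaks up to 36 and CRIPTO 5 up to 18, L1TD1 had 3 up to 28 and NANOG 1 of 5, while none was listed in POU5F1 or SOX2. Of 6 fibroblast markers 4 had peaks, THY1 (highest 39), COL6A1 (26), COL1A1 (17) and COL1A2 (16), and none was listed in COL3A1 or VIM. Of 9 germ-layer markers NES had 1 peak of 15 and KDR 8 up to 16. The share with a peak was 66.7% for the fibroblast markers (exact 95% interval 22.3 to 95.7). It was 71.4% for 7 stem-cell markers, DNMT3B included (29.0 to 96.3). For the 3 neuroectoderm and the 3 mesoderm markers it was 33.3% each (0.84 to 90.6). For the 3 endoderm markers it was 0% (0 to 70.8). The 31.0% of all protein-coding genes lies inside each of these intervals, and the differences were not tested. COL1A1 had the same PH0 as DNMT3B, 0.55, and 4 peaks. Reads of the mouse feeder cells were not separated here, and their part in the heights was not tested.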

How the data were processed

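Per the labels' protocols, H9 cells received a single UV dose of 160 mJ/cm2 (254 nm), after which tagged DDX18 was recovered on beads carrying a FLAG antibody. Peaks were annotated on hg19 with annotatePeaks.pl, per the file headers, and FastQC 0.10.1 and BWA are named in the submitters' processing notes. For the peak caller, duplicates and the significance rule, the sources used here give nothing. Peak height is the authors' deposited signal, in whole numbers and without values per replicate. The distance to the nearest start site was deposited by the authors in bases.

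The peak name gave the called gene, height, expected height PH0 and p-value, all deposited by the authors. Genes were named by Entrez identifier through the RefSeq table of GRCh38.p14, which gave no coordinates. The label exon on a coding transcript was read as coding exon. Counts used Python 3.11.15, pandas 2.3.3 and SciPy 1.17.1, and the parser was tested on simulated data. No test between groups was possible. Members and lists were chosen with earlier results of these data known. Of the methylation list, 2 genes are not reported here and are left out of its counts. Named were all members, the genes of the methylation list and markers, and the 3 genes most like DNMT3B. Alternatives were stricter p-values, a height minimum, another gene assignment and peaks called in 1 gene only. No peak sequence is shown, because no genome of the build was used here.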

Additional observations from a re-analysis of the deposited data

How the results depend on the processing

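Of 44 recomputed values for the family and the 2 comparison lists, 39 stayed and 5 moved. Those that stayed were within 1.5 times a reported count or within the 95% interval of a reported share. These limits are wide. With a height of at least 10 the family had 16 peaks in place of 24, and this was counted as stayed, as was the 3' UTR share of 20% below. The 2 shares without peaks annotated to another gene's transcript were fixed in advance, since no peak of the family carries one. Of 72 further values for single genes, 10 were counted as moved. Several of the others could not move. The 5 highest peaks ranked by height over PH0 were fixed, since each gene has 1 PH0, and no filter could add peaks to DNMT3L or TET2. With peaks assigned to the closest start site's gene in place of the called gene, 3 of the 7 genes had a peak, with 10 peaks in all and a summed height of 108, and the 3' UTR share was 20% and the coding share 70%, against 37.5% and 62.5%. By that assignment DNMT3B had 6 peaks with a highest of 17, and DNMT1 had 0 peaks. These changes follow from the construction of the assignment, since 15 of the 24 peaks lie nearer to a neighbour's start site. With a height of at least 10, 1 of the 7 genes had a peak, because the peaks of the other 6 reach 9 at most, and 8 of the 28 cofactor and reader genes had one. With a deposited p of at most 0.001, TET3 had 0 peaks. Positions called in several genes, a height of at least 2 times PH0 and a p of at most 0.01 moved none of the values computed for them. For the 7 genes this was fixed in advance, since these filters removed none of the 24 peaks. Each was called in 1 gene, with a height of at least 20 times PH0 and a p of at most 0.00982. Of the 28 cofactor and reader genes, 15 had a peak at a p of at most 0.01, against 17 without that limit. The share of genes of like PH0 with more peaks than DNMT3B was 3.40% with a range of 0.45 to 0.65 and 4.17% with exonic peaks only, both chosen after seeing the data. Leaving out a replicate could not be run, since the list holds no value per replicate. No paired analysis was possible because the list has 1 group and no column per sample. Depth per sample is unknown and limits every statement on genes without a peak.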
